A study of Mus musculus with 12 samples.

Results

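AP-1 is a family of transcription factors that bind DNA as pairs of basic leucine zipper proteins. Fos proteins need a Jun partner, Jun proteins can also pair with one another, and the ATF, BATF and small MAF proteins widen the choice of partners and of DNA sites. Several of these genes are immediate-early genes, which neurons and glia transcribe within minutes of light, synaptic activity, growth factors or injury, and Jun and Atf3 are known to accumulate in retinal ganglion cells after damage to the optic nerve. The 9 genes described here, Fos, Fosb, Fosl2, Jun, Junb, Jund, Atf3, Maff and Batf3, were taken by symbol from the 54532 gene identifiers of the count table, and each symbol matched 1 identifier.

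Retinal RNA was sequenced in 12 libraries, 3 in each of 4 groups, from wild type C57BL/6 mice aged 13 weeks, all female according to the methods of the study. SHAM mice were sham controls, and MOG mice had been immunised with MOG35-55 peptide in complete Freund's adjuvant with Mycobacterium tuberculosis and pertussis toxin, which gives experimental autoimmune encephalomyelitis (EAE) with optic neuritis, inflammation of the optic nerve. GB20 and GV16 mice were immunised in the same way and then needled repeatedly, under xylazine and ketamine, at the acupoint GB20 or at the control acupoint GV16. Anaesthesia was described for the needled mice alone, so needling and anaesthesia cannot be told apart in comparisons with MOG or SHAM, and it was not stated what SHAM mice received, at what time of day retinas were taken or how long after the last needling. The methods call the libraries biological replicates and describe several mice per group in repeated experiments, without saying which mice made up a library, and p-values measure the spread between these libraries. Total counts ranged from 15860278 in GV16 replicate 2 to 19194280 in GB20 replicate 1, and within each group every pair of libraries differed by more than counting noise, with a chi-square per degree of freedom of 2.87 to 15.0. The tissue label was matched by the cone opsin gene Opn1sw, at 361.7 to 455.4 CPM (counts scaled to library size, with edgeR's TMM normalisation), and the Muller cell gene Glul, at 1660 to 2163 CPM.

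The 9 genes are protein coding and lie on 7 chromosomes of the mm10 (GRCm38) genome. Fos is at chr12:85473890-85477273 on the plus strand, Fosb at chr7:19302696-19310051 on the minus strand and Fosl2 at chr5:32135801-32157842 on the plus strand. Jun is at chr4:95049034-95052222 on the minus strand, and Junb and Jund are both on chromosome 8, at chr8:84974484-84978718 on the minus strand and chr8:70698949-70700616 on the plus strand. Atf3 (chr1:191170296-191218039, minus strand) and Batf3 (chr1:191097847-191108945, plus strand) are both on chromosome 1, and Maff is at chr15:79346621-79359076 on the plus strand. Jun and Jund have a single exon in the GENCODE vM21 annotation. Of the exonic bases of Jund, 52.6% overlap the antisense gene Gm11175, which had 0 counts in all 12 libraries, so the Jund count is uncertain as to strand. The overlaps of Jun with Junos (7.28% of exonic bases) and of Junb with Prdx2 (7.52%) are smaller, but the strand setting of the counting was not stated and reads from these stretches cannot be assigned to a strand.

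Fos and the Jun genes are classic targets of signal-responsive promoters, in which CREB and ATF proteins bind the cAMP response element. To show these letters, stretches of 100 bases from 120 to 21 bases before the RefSeq start (GRCm38.p6) are shown for Fos, Fosb, Junb and Jun, 5' to 3' on the strand of the gene. Capitals mark the core letters TGACG of the cAMP response element in Fos, Fosb and Junb, and the variant TGACATCA in Jun.
Fos, chr12:85473770-85473869, plus strand: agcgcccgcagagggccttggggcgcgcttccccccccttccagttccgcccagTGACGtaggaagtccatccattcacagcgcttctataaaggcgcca
Fosb, chr7:19310066-19310165, minus strand: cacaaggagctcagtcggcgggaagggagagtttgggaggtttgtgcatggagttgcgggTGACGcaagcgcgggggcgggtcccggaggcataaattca
Junb, chr8:84978769-84978868, minus strand: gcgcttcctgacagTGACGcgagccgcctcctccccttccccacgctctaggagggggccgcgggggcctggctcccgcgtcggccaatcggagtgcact
Jun, chr4:95052243-95052342, minus strand: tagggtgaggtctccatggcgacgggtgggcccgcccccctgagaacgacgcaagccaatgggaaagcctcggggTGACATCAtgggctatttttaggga
The core letters begin 66 bases before the start in Fos, 60 in Fosb and 106 in Junb, and the variant begins 45 bases before the start in Jun. Among stretches of the same 100 bases from 32851 promoters, searched on both strands, TGACG occurred in 9.5%, the full palindrome TGACGTCA, which contains TGACG, in 0.971%, and TGACATCA in 1.84%. All 9 genes had a promoter entry. Fosl2, Jund, Atf3 and Batf3 held none of these letters in this window, nor the AP-1 site TGACTCA or TGAGTCA, which occurred in 2.0% of promoters, whereas 1 of the 3 start sites listed for Maff held TGACGTCA and another held TGACATCA. The windows of Fosl2 and Batf3 overlapped annotated exons. Those of Jund (chr8:70697619-70697718) and Atf3 (chr1:191183354-191183453) follow RefSeq starts that are not next to the gene ends given above, the first lying before the gene and the second within it. A match gives the letters only and is not a bound site.

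Levels were compared between genes in FPKM, fragments per kilobase of gene length scaled to library size. In SHAM retinas the order was Jund (24.0 ± 2.62 FPKM, SD, n = 3), Fos (16.3 ± 6.74), Jun (14.8 ± 0.525), Junb (11.2 ± 3.15), Atf3 (4.45 ± 0.405), Fosl2 (1.115 ± 0.212), Fosb (0.723 ± 0.127), Maff (0.590 ± 0.156) and Batf3 (0.0480 ± 0.0417). The SHAM ranges of Jund and Fos overlapped, as did those of Fos and Jun, and of Fosb and Maff. Within each SHAM library Jund was above Fos, at 25.2 against 22.5, 25.8 against 17.3 and 21.0 against 9.155 FPKM. Fos and Jun, and Fosb and Maff, changed order between SHAM libraries. The other neighbours did not overlap. Against the 18299 genes tested, the mean SHAM level of Jund was higher than that of 89.2% of genes, Fos higher than 82.9%, Atf3 higher than 50.1% and Maff higher than 15.5%. Jund, the Jun protein usually present without stimulation, made up 29.7 to 36.4% of the summed FPKM of the 9 genes in every library, whereas the share of Fos ranged from 14.3% in MOG replicate 1 to 27.2% in SHAM replicate 1.

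**Figure D1:**
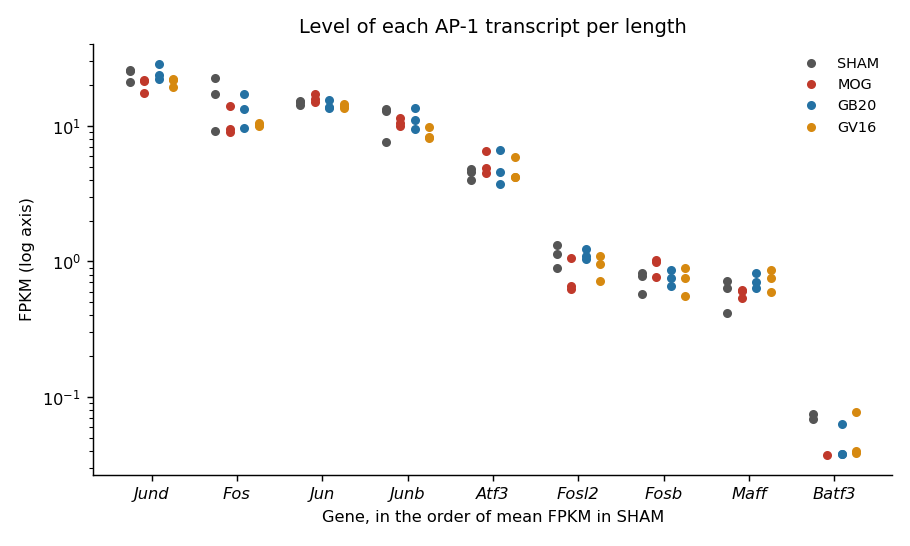
FPKM of each AP-1 gene on a log axis, with 1 point per library and colours for the groups, in the order of the SHAM mean; values of 0, which occurred for Batf3 alone, are not drawn. Jund, Fos, Jun and Junb lie between 7.54 and 28.8 FPKM, and Fosl2, Fosb and Maff between 0.416 and 1.31.

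Batf3, a factor of dendritic cells, was at the limit of detection, with 13 counts in all 12 libraries together, 0 to 2 in each. Its highest value, 0.124 CPM, lay under the level of 3 counts per library (0.156 to 0.189 CPM), which covers counting error only, so no difference in Batf3 could be seen at this depth. It did not pass the filter on low counts, and the other 8 genes were tested.

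To ask which AP-1 genes differed after immunisation and after needling, all 6 pairs of groups were compared with edgeR over the same 18299 genes, with adjusted p under 0.05 as the threshold. None of the 8 tested AP-1 genes passed it in any of the 6 comparisons or in the joint test of any difference among the 4 groups, and DESeq2 also called 0 of them in each. Of all genes, edgeR called 1.34% for MOG against SHAM, 0.24% for GB20 against MOG, 0.164% for GV16 against MOG and 0.00546% for GB20 against GV16. The shares were 0.344% for GB20 against SHAM, 0.656% for GV16 against SHAM and 1.1% in the joint test, so that less than 1 call among 8 genes would match the background in each. At an unadjusted p under 0.05, edgeR gave 2 AP-1 genes for MOG against SHAM, 2 for GB20 against MOG, 1 for GV16 against MOG, 1 for GB20 against GV16, 0 for either needled group against SHAM and 2 in the joint test. The shares of all genes at that threshold were 13%, 8%, 5.3%, 2.93%, 9.06% (GB20 against SHAM), 10.9% (GV16 against SHAM) and 10.1%. DESeq2 on 12 libraries gave 2, 2, 1, 2, 0 and 2 AP-1 genes at that threshold in the 6 comparisons in the same order, against 6.53%, 3.67%, 2.39%, 1.22%, 4.29% and 5.48% of the genes with a DESeq2 p. Without 1 library at a time, the number of all genes called by edgeR for MOG against SHAM ranged from 91 (without MOG replicate 3) to 427 (without SHAM replicate 3), and the number of AP-1 genes stayed 0. Because 3 libraries per group leave wide intervals, each difference is given with its 95% confidence interval.

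**Figure D2:**
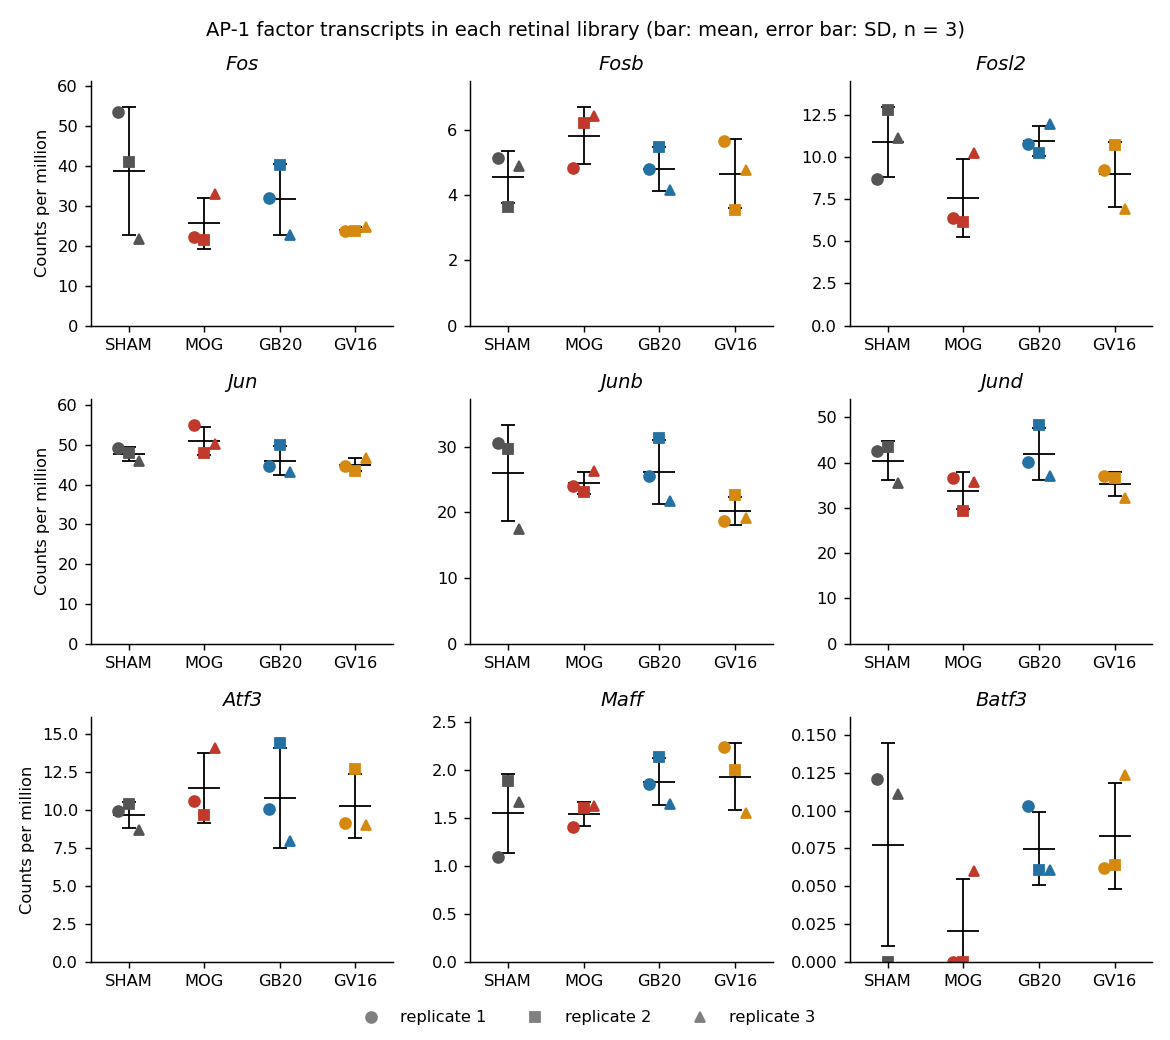
CPM of the 9 AP-1 genes in each library, by group, with each axis starting at 0; symbols give the replicate number, and the bar and whiskers give mean and SD over 3 libraries. The spread of Fos and Junb within SHAM, from 21.8 to 53.5 and from 17.5 to 30.6 CPM, covers the means of the other groups, whereas Jun stays between 43.1 and 54.9 CPM in all libraries.

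The comparison of MOG with SHAM addresses immunisation, which gives EAE with optic neuritis. Because the treatment of SHAM mice was not stated, adjuvant and toxin cannot be told apart from the disease. Fos, the founding member of its family, stood at 53.5, 41.0 and 21.8 CPM in SHAM replicates 1, 2 and 3 and at 22.2, 21.5 and 33.1 CPM in MOG replicates 1, 2 and 3. SHAM replicate 3 was as low as the lower MOG libraries, and MOG replicate 3 lay between the SHAM libraries, so the groups overlapped. The log2 difference was -0.60 (SE 0.34, 95% CI -1.37 to 0.18, edgeR adjusted p = 0.505), an interval that includes 0.

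Fosl2, a Fos relative without the activation domain of Fos, stood at 8.72, 12.8 and 11.2 CPM in SHAM and at 6.38, 6.14 and 10.3 CPM in MOG. MOG replicates 1 and 2 were the lowest of all 12 libraries, whereas MOG replicate 3 lay within the SHAM range. The log2 difference was -0.52 (SE 0.19, 95% CI -0.92 to -0.12), with an edgeR p of 0.0133 before and 0.243 after adjustment. Without the filter on low counts, edgeR called Fosl2 (log2 difference -0.53, adjusted p = 0.0219), and its adjusted p over all settings tried ranged from 0.0219 to 0.657.

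Fosb, which is spliced into a long-lived short form after repeated stimulation, was higher in all 3 MOG libraries than the SHAM mean of 4.56 CPM, at 4.81, 6.21 and 6.43 CPM, but the groups overlapped and the log2 difference of 0.35 (95% CI -0.05 to 0.74) had an edgeR adjusted p of 0.451. Splice forms were not resolved by these gene counts.

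Among the Jun genes, Jund stood at 42.5, 43.4 and 35.4 CPM in SHAM and at 36.5, 29.2 and 35.7 CPM in MOG. The lowest SHAM library lay below MOG replicates 1 and 3, and MOG replicate 2 was the lowest of all libraries. The log2 difference was -0.26 (SE 0.11, 95% CI -0.48 to -0.03), with an edgeR p of 0.0264 before and 0.304 after adjustment. Jun, the target of JNK kinases after axon damage, was the steadiest of the 8 genes, with 47.7 ± 1.67 CPM in SHAM and 51.1 ± 3.55 in MOG (SD, n = 3), and its log2 difference was 0.10 (95% CI -0.06 to 0.26, edgeR adjusted p = 0.615). Junb, which often opposes Jun at shared targets, differed by -0.08 (95% CI -0.48 to 0.32, edgeR adjusted p = 0.89), and by 0.05 without SHAM replicate 1 and 0.03 without SHAM replicate 2.

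Atf3, a stress-induced partner of Jun in injured neurons, stood at 9.93, 10.4 and 8.71 CPM in SHAM and at 10.6, 9.71 and 14.1 CPM in MOG, where replicates 1 and 3 lay above the highest SHAM library and replicate 2 within the SHAM range. The log2 difference was 0.24 (95% CI -0.16 to 0.65, edgeR adjusted p = 0.619). Maff, a small MAF protein without an activation domain, had 18 to 36 counts per library and differed by -0.01 (95% CI -0.57 to 0.55, edgeR adjusted p = 0.991), a sign that changed without SHAM replicate 2 (0.16), SHAM replicate 3 (0.04) or MOG replicate 1 (0.05). Over the 8 genes, 3 were higher and 5 lower in MOG, with a median log2 difference of -0.05, against 0.00 over all genes (-0.00235). No AP-1 gene had MOG and SHAM libraries that did not overlap, a pattern shown by 16.2% of all genes.

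**Figure D3:**
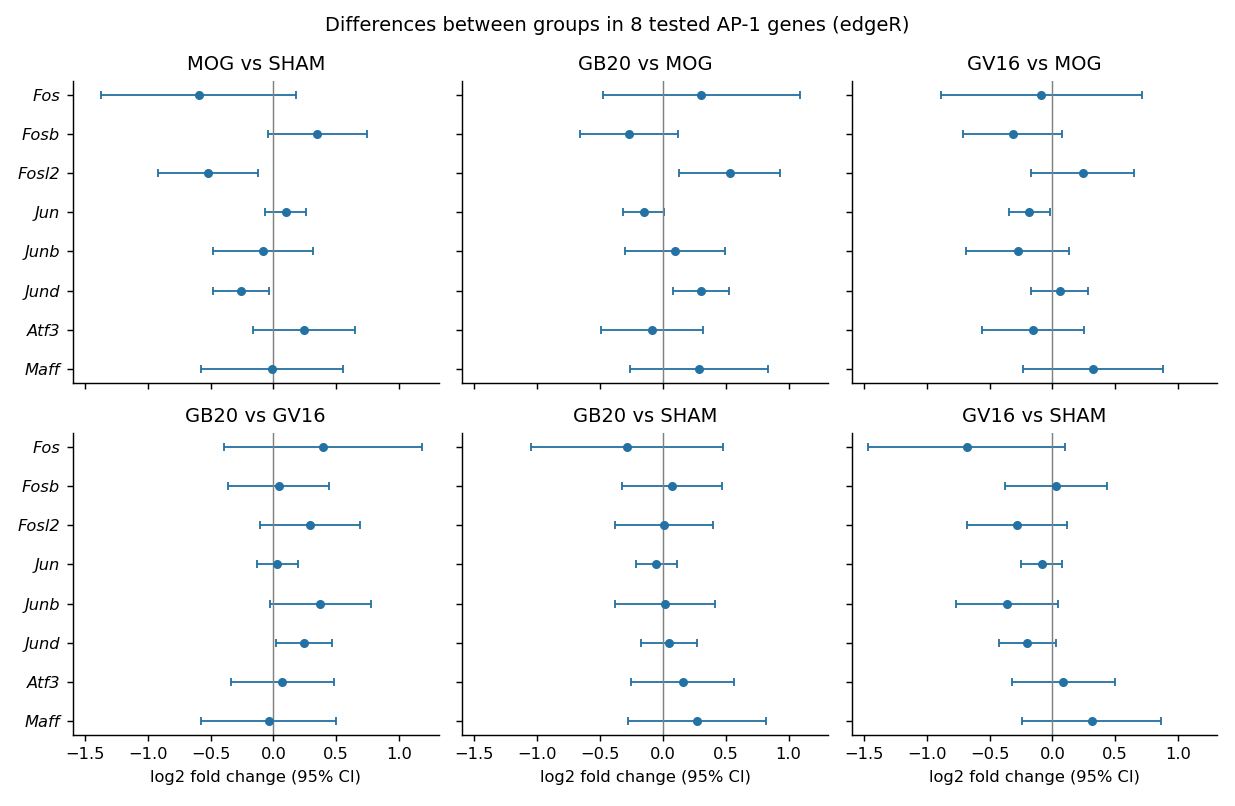
Log2 fold change of the 8 tested AP-1 genes in each comparison of groups, as points with 95% confidence intervals from edgeR. Intervals of Fos are the widest in each panel and those of Jun the narrowest, and the intervals away from 0 belong to Fosl2 and Jund (MOG against SHAM and GB20 against MOG), Jun (GV16 against MOG) and Jund (GB20 against GV16), none of which passed adjustment over all genes.

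GB20 was compared with MOG to ask what needling at this point adds to immunisation. Jund stood at 40.1, 48.2 and 37.1 CPM in GB20 replicates 1, 2 and 3, each above the highest MOG library (36.5 CPM). The log2 difference was 0.30 (SE 0.11, 95% CI 0.08 to 0.53), with an edgeR p of 0.00974 before and 0.463 after adjustment. Fosl2 stood at 10.8, 10.2 and 11.9 CPM in GB20, and MOG replicate 3, at 10.3 CPM, was the 1 MOG library within that range. Its log2 difference was 0.53 (SE 0.19, 95% CI 0.13 to 0.93), with an edgeR p of 0.012 before and 0.481 after adjustment. For both genes the GB20 mean was near that of SHAM, with 41.8 against 40.4 CPM for Jund and 10.97 against 10.9 CPM for Fosl2, but MOG libraries enter both comparisons and neither difference from MOG was called.

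Fos in GB20 spread from 22.7 CPM in replicate 3 to 40.4 in replicate 2, with 31.9 in replicate 1, and overlapped MOG (log2 difference 0.31, 95% CI -0.47 to 1.09, edgeR adjusted p = 0.857). Junb showed the same order of libraries, at 25.6, 31.4 and 21.7 CPM (log2 difference 0.10, 95% CI -0.30 to 0.50, edgeR adjusted p = 0.915), and its difference was -0.05 without GB20 replicate 2. The 2 AP-1 genes whose GB20 and MOG libraries did not overlap were Jund and the low-count Maff, against 15.7% of all genes. The median log2 difference was 0.19 over the 8 genes, 5 of them higher, and 0.00 over all genes (0.000837).

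GV16 served as the control point, and its comparison with MOG gave the smallest AP-1 p for Jun. Jun stood at 44.7, 43.5 and 46.7 CPM in GV16 and at 54.9, 47.9 and 50.3 CPM in MOG, so all GV16 libraries lay below all MOG libraries, but the log2 difference was small at -0.18 (SE 0.08, 95% CI -0.35 to -0.02) and had an edgeR p of 0.0298 before and 0.905 after adjustment. Junb, at 18.8, 22.7 and 19.2 CPM in GV16 against 24.0, 23.0 and 26.4 in MOG, did not overlap either, with an edgeR adjusted p of 0.997. These were the 2 AP-1 genes without overlap, against 12.6% of all genes. Fosb was below the MOG mean of 5.82 CPM in all 3 GV16 libraries, at 5.65, 3.54 and 4.77 CPM, with a log2 difference of -0.32 (95% CI -0.71 to 0.08, edgeR adjusted p = 0.992). Fos in GV16 was nearly constant at 23.8, 23.7 and 24.8 CPM, within the MOG range.

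The direct comparison of GB20 with GV16 tests whether the needling points differed. The GB20 libraries of Jund lay above the highest GV16 library (36.9 CPM), with a log2 difference of 0.25 (SE 0.11, 95% CI 0.02 to 0.47) and an edgeR p of 0.0321 before and 1.0 after adjustment (0.9999). Jund was the 1 AP-1 gene without overlap, against 8.34% of all genes. Junb differed by 0.37 (95% CI -0.03 to 0.78) and Fosl2 by 0.29 (95% CI -0.11 to 0.69), both with an edgeR adjusted p of 0.9999. Higher values in GB20 were seen for 7 of the 8 genes, with a median log2 difference of 0.16 against 0.00 over all genes (0.00097), and the intervals do not show that the points act alike.

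Against SHAM, the needled groups gave 0 AP-1 genes at an unadjusted p under 0.05 by edgeR, and none whose libraries did not overlap, against 12.7% of all genes for GB20 and 14.5% for GV16. The log2 difference of Fos was -0.29 in GB20 (95% CI -1.05 to 0.48, and 0.01 without SHAM replicate 1) and -0.68 in GV16 (95% CI -1.46 to 0.10, edgeR adjusted p = 0.522), and for Junb it was -0.36 in GV16 (95% CI -0.76 to 0.05, edgeR adjusted p = 0.520). Jund stood at 36.9, 36.5 and 32.2 CPM in GV16 replicates 1, 2 and 3, lower in each than in the SHAM library of the same number (42.5, 43.4 and 35.4 CPM), with a log2 difference of -0.20 (95% CI -0.42 to 0.03) and an edgeR p of 0.0795, or 0.0584 with the replicate number as a block (adjusted 0.523 and 0.400). Among the 8 tested genes it was the 1 that was lower in all 3 same-numbered pairs of GV16 and SHAM. The share of all genes with that pattern was not counted, so the pattern is not a result about Jund. SHAM replicate 3 was the lowest library for Junb, at 17.5 CPM. Without it, edgeR called Junb lower in GV16 (log2 difference -0.58, adjusted p = 0.0236), the range of its adjusted p over all settings being 0.0236 to 0.837. That fit called 231 of 18708 genes, against 120 of 18299 in the fit on all libraries. Leaving out the lowest Junb library of SHAM also raises the SHAM mean of Junb. With the replicate number as a block, edgeR called 182 in place of 63 genes for GB20 against SHAM and 236 in place of 120 for GV16 against SHAM, and 0 AP-1 genes in both. At an unadjusted p under 0.05 the block gave 0 AP-1 genes in both, against 10.8% and 13.2% of all genes, whereas DESeq2 gave 0 for GB20 and 2 of 8 for GV16, against 4.29% and 5.48%. The comparisons share libraries, so their results are not independent of each other.

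Fos varied widely between libraries of the same group. Its coefficient of variation beyond counting noise was 28.0% in edgeR, where the trend for genes of its abundance gave 8.14%, and it exceeded that of 99.7% of 3186 genes within 1.5-fold of its mean. Junb (15.3%), Atf3 (15.3%) and Fosl2 (14.7%) also exceeded more than 95% of genes of like mean (98.1%, 96.2% and 95.8%), whereas Jun (6.7%) exceeded 30.4% and Maff 17%. The Fos value in SHAM replicate 1 was 2.46 times that in SHAM replicate 3, against a ratio of 1.04 between the highest and lowest GV16 libraries.

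Fos varied together with Junb and with Jund over the libraries. Of the 28 pairs among the 8 tested genes, Fos and Junb gave Pearson r = 0.844 (permutation p = 0.00042, adjusted over 28 pairs 0.0118) and a Spearman coefficient of 0.720 (permutation p = 0.0104, adjusted 0.108) over 12 libraries. Without SHAM replicates 1 and 2, the libraries farthest from the median of Fos, r was 0.784, and for deviations from the group means it was 0.909. Fos and Jund gave r = 0.759 (permutation p = 0.00338, adjusted 0.0473) and Spearman 0.713 (permutation p = 0.0116, adjusted 0.108), with r = 0.735 without the same 2 libraries and 0.718 for deviations from the group means. These were the 2 pairs whose Pearson p passed 0.05 after adjustment, and no Spearman p did. Junb and Jund did not pass, with r = 0.691 (permutation p = 0.0125, adjusted 0.117) and Spearman 0.636 (permutation p = 0.0295, adjusted 0.165). The permutations treat the 12 libraries as exchangeable, although replicate numbers were taken to pair SHAM with GB20 and with GV16, and Fos and Junb were low in replicate 3 of both SHAM and GB20. A shared replicate effect was not removed from these p-values. Junb and Atf3 had r = 0.600 (permutation p = 0.0403, adjusted 0.279) and Spearman 0.727 (permutation p = 0.00976, adjusted 0.108), and r dropped to 0.392 without SHAM replicate 3 and GB20 replicate 2. Fos and Fosb, close relatives, had r = 0.0239 (permutation p = 0.942, adjusted 0.977) and Spearman -0.0210 (permutation p = 0.957, adjusted 0.957).

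**Figure D4:**
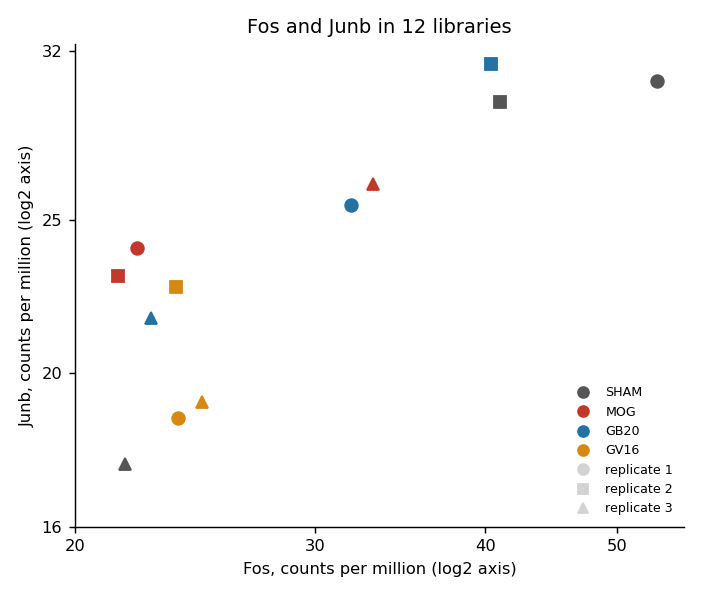
Fos against Junb in CPM on log2 axes, with 1 symbol per library, colours for groups and shapes for replicate numbers. SHAM replicates 1 and 2 and GB20 replicate 2 are at the upper right, at 40.4 to 53.5 CPM of Fos and 29.7 to 31.4 CPM of Junb, and SHAM replicate 3 is at the lower left.

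The genes most like Fos over the 12 libraries, among 16051 genes with a mean of at least 1 CPM, were the nuclear receptor Nr4a1 (r = 0.950, Spearman 0.860), the MAP kinase phosphatase Dusp1 (r = 0.920, Spearman 0.797) and the kinase Sik1 (r = 0.897, Spearman 0.755). For Junb they were the lysine methyltransferase Eef1akmt1 (r = 0.925, Spearman 0.902), the immediate-early gene Ier2 (r = 0.903, Spearman 0.902) and the TFIIH subunit Gtf2h3 (r = 0.883, Spearman 0.881), and for Jun they were Rhoc (r = 0.875, Spearman 0.874), Mphosph8 (r = 0.873, Spearman 0.874) and 2310022B05Rik (r = 0.872, Spearman 0.888). For Atf3 they were Csrnp1 (r = 0.842, Spearman 0.818), the non-coding BC002059 (r = 0.835, Spearman 0.881) and Zfp212 (r = 0.831, Spearman 0.790). These were the 3 highest r among 16051 genes for each of the 4 AP-1 genes and describe likeness only. For Nr4a1 the SHAM libraries had 67.4, 66.0 and 36.2 CPM and the MOG libraries 36.7, 39.1 and 47.9. The GB20 libraries had 54.9, 64.3 and 40.6 CPM and the GV16 libraries 35.3, 39.9 and 44.8. Like Fos, Nr4a1 was high in SHAM replicates 1 and 2 and GB20 replicates 1 and 2 and low in SHAM replicate 3.

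**Figure D5:**
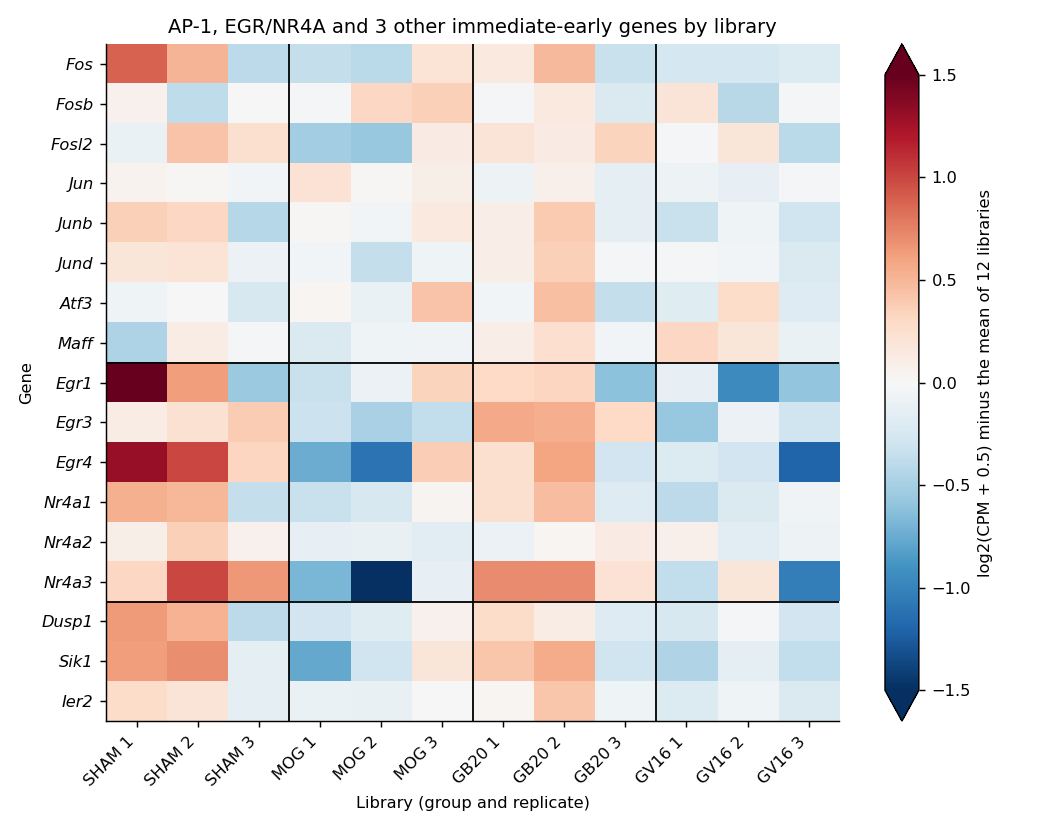
Log2(CPM + 0.5) of the 8 tested AP-1 genes, the 6 tested EGR and NR4A genes and Dusp1, Sik1 and Ier2 (from top to bottom), as the difference from the mean of the 12 libraries in columns. Fos, Junb, Egr1, Nr4a1, Dusp1 and Sik1 are above their means in SHAM replicates 1 and 2 and GB20 replicates 1 and 2 and below them in SHAM replicate 3 and GB20 replicate 3, whereas Jun hardly varies.

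The EGR and NR4A factors, which answer the same stimuli, had 1 call among 6 tested genes: Egr3 rose in GB20 against MOG (log2 1.07, SE 0.23, edgeR adjusted p = 0.0488), at 3.35, 3.28 and 2.68 CPM against 1.57, 1.35 and 1.501. By DESeq2 Egr3 was not called (adjusted p = 0.0625), whereas Nr4a3 was called higher in GB20 than in MOG and lower in MOG than in SHAM (log2 1.45 and -1.58, adjusted p = 0.0238 and 0.00226), and Egr4 lower in GV16 than in SHAM (log2 -1.90, adjusted p = 0.0264). All 6 had lower means in MOG and in GV16 than in SHAM (median log2 difference -0.83 and -0.92, with 4 genes at an unadjusted edgeR p under 0.05 in each, against 13% and 10.9% of all genes) and higher means in GB20 than in MOG and than in GV16 (median 0.58 and 0.78, with 2 genes at that threshold in each, against 8% and 2.93% of all genes). In GB20 against SHAM 5 of the 6 were lower (median -0.14) and in GV16 against MOG 3 (median 0.02), with 0 genes at that threshold in each.

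Among 24 other immediate-early genes, all tested, 1 rose in MOG against SHAM and 1 in GB20 against MOG, and none was called in the other comparisons by edgeR. Lower means in MOG than in SHAM were seen for 16 of the 24 (median log2 difference -0.14, 6 genes at an unadjusted edgeR p under 0.05, against 13% of all genes). In GV16 against SHAM 16 were lower as well (median -0.07, 8 genes at that threshold, against 10.9%), while in GB20 against SHAM 10 were lower and 14 higher (median 0.04, 2 genes, against 9.06%). Gadd45b, a stress-induced regulator of MAP kinase signalling, rose in MOG (log2 0.74, SE 0.17, edgeR adjusted p = 0.0287), from 7.75, 8.70 and 5.55 to 10.6, 12.5 and 13.5 CPM. In GB20 against SHAM it was called with the replicate number as a block (log2 0.74, edgeR adjusted p = 0.0145) and by DESeq2 (adjusted p = 0.0130), but not by edgeR without the block (adjusted p = 0.0607). Per1, an immediate-early gene of the circadian clock, rose in GB20 against MOG (log2 0.53, SE 0.10, edgeR adjusted p = 0.0338), at 131.9, 159.6 and 130.7 against 83.1, 97.3 and 112.1 CPM. Of these 24 genes, 21 were higher in GB20 than in GV16, with a median of 0.15 and 0 calls, and 2 had an unadjusted edgeR p under 0.05, against 2.93% of all genes.

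Genes that act upstream of AP-1 gave no call in any comparison of groups by edgeR without a block. Among 21 JNK and ERK kinases and scaffolds, the smallest p belonged to Map3k1, a kinase upstream of JNK, which stood at 72.1, 66.7 and 73.5 CPM in SHAM and 80.5, 83.1 and 91.9 in MOG (log2 difference 0.27, SE 0.07, edgeR adjusted p = 0.0659) and was called by DESeq2 (adjusted p = 0.0257) and by edgeR with the replicate number as a block (adjusted p = 0.0233), the 1 upstream gene called in either. Of 13 regulators of Fos and Jun transcription (CREB, SRF, ELK and MEF2 factors and their partners), Crem, a CREB relative, had the smallest edgeR p, 0.0244 for GB20 against SHAM (adjusted 0.455). Among the dual-specificity phosphatases, which switch MAP kinases off, the smallest p belonged to Dusp1 in GV16 against SHAM (log2 difference -0.51, edgeR adjusted p = 0.506). Among the other AP-1 family genes it belonged to Jdp2, a repressor of AP-1, in GB20 against MOG (log2 difference 0.35, edgeR adjusted p = 0.444). By edgeR without the block, at most 3 of 21 kinases and 1 of 13 regulators had an unadjusted p under 0.05 in any comparison. The same fit gave at most 0 of 9 phosphatases and 3 of 8 other family genes. The kinase count of 3 was reached in GB20 and in GV16 against SHAM, where 9.06% and 10.9% of all genes passed that threshold. The count of other family genes was reached in MOG against SHAM, where 13% did. With the replicate number as a block, 5 kinases passed in GB20 and 4 in GV16 against SHAM, against 10.8% and 13.2% of all genes. In the comparisons not taken as paired, the block gave 5 kinases for GB20 against MOG and 4 for MOG against SHAM. It gave 0 for GV16 against MOG and 1 for GB20 against GV16.

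Of 18 genes listed as AP-1 targets, 12 were tested. Cd44, a hyaluronan receptor, rose in MOG (log2 0.77, SE 0.14, edgeR adjusted p = 0.00289), from 8.05, 7.59 and 8.27 to 12.7, 13.0 and 15.1 CPM, and was also called higher in GB20 than in SHAM (log2 0.64, SE 0.14, edgeR adjusted p = 0.0422). Mmp9, a secreted protease, fell in MOG by 0.54 on the log2 scale (edgeR adjusted p = 0.04), from 15.3, 16.1 and 15.2 to 10.4, 10.5 and 11.2 CPM, and in GV16 against SHAM by 0.58 (edgeR adjusted p = 0.0413). In GB20 against SHAM it was called with the replicate number as a block (log2 -0.57, edgeR adjusted p = 0.0341) and by DESeq2 (adjusted p = 0.0275), but not by edgeR without the block (adjusted p = 0.0632). The list thus had calls in both directions, and its median log2 difference between MOG and SHAM was -0.06.

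Among 15 axon injury genes, 2 rose in MOG. Ecel1, a peptidase induced in damaged neurons, rose from 0.727, 0.941 and 0.777 to 6.66, 4.92 and 8.83 CPM (log2 3.05, SE 0.25, edgeR adjusted p = 3.23e-07) and was also higher in GB20 and GV16 than in SHAM (log2 2.68 and 2.86, edgeR adjusted p = 6.20e-06 and 1.67e-06). Sprr1a, a cytoskeletal protein of regrowing axons, had 0 counts in SHAM, where 3 counts would be 0.156 to 0.189 CPM over the 12 libraries, and 0.392, 0.369 and 0.961 CPM in MOG (edgeR adjusted p = 0.0186). DESeq2 gave it no adjusted p. It stood at 0.618, 0.304 and 0.244 CPM in GB20 and at 0.559, 0.0643 and 0.743 CPM in GV16, where it was called against SHAM with the replicate number as a block (edgeR adjusted p = 0.0403 and 0.0258) but not without it (adjusted p = 0.0940 and 0.0596).

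Retinal ganglion cell markers moved with immunisation, while the AP-1 genes did not pass the test. These markers were listed with earlier results of these data known. The study itself reports Pou4f1, Isl2 and Sncg as lowered, so the count of markers is not independent of it. All 11 fell in MOG against SHAM by edgeR, with a median of -0.91 on the log2 scale, and their summed level was 850.2 to 964.9 CPM in SHAM and 472.9 to 571.6 in MOG. It was 566.9 to 588.9 CPM in GB20 and 445.6 to 645.5 in GV16, and in both groups all 11 markers were lower than in SHAM at an unadjusted edgeR p under 0.05, against 9.06% and 10.9% of all genes, with median log2 differences of -0.58 and -0.78. After adjustment 4 and 10 of the 11 were called by edgeR, 9 and 10 with the replicate number as a block, and 8 and 10 by DESeq2. All 11 had higher means in GB20 than in MOG (median log2 difference 0.13), with 4 at an unadjusted edgeR p under 0.05, against 8% of all genes. None was called by edgeR without the block or by DESeq2 on 12 libraries, while the block called Sncg (log2 0.43, edgeR adjusted p = 0.0473). The study, in its own DESeq2 analysis, lists Sncg among the genes reversed by GB20. In GV16 against MOG 8 of 11 were higher (median 0.12), with 0 at that threshold and 0 called in any of these fits. Between GB20 and GV16, 10 of the 11 had higher means in GB20 (median log2 difference 0.14). None was called in that comparison, by edgeR with or without the block or by DESeq2, and the number at an unadjusted edgeR p under 0.05 was 1, against 2.93% of all genes. The most abundant, Nefl, a neurofilament subunit, stood at 293.0, 284.2 and 263.3 CPM in SHAM and 163.5, 136.2 and 138.6 in MOG, and no marker was at 0. In whole retina, fewer cells of a type and less RNA per cell cannot be told apart, and the part of these cells in AP-1 levels was not tested.

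Gliosis and microglial genes were called only higher, whereas Muller cell and oligodendrocyte genes had calls in both directions over the 6 comparisons. Gliosis genes had 3 of 7 called higher in MOG, among them Gfap (log2 1.25, edgeR adjusted p = 0.00287) and Serpina3n (log2 2.08, edgeR adjusted p = 0.00287), and microglial genes had 2 of 12, Csf1r and C1qa (log2 0.59 and 0.99, edgeR adjusted p = 0.0269 and 0.0451). Against SHAM, 3 gliosis genes were called higher in GB20 and 2 in GV16 by edgeR, 2 and 1 with the replicate number as a block, and 4 and 3 by DESeq2. For microglial genes these counts were 0 and 1 by edgeR, 1 and 1 with the block, and 2 and 1 by DESeq2. In GB20 against SHAM the block lost Gfap and Serpina3n (log2 1.14 and 1.69, edgeR adjusted p = 0.0684 and 0.0770) and gained Vim (adjusted p = 0.043). In GV16 against SHAM it lost Serpina3n (log2 1.60, edgeR adjusted p = 0.0827). Without the block these 3 log2 differences were 1.15, 1.68 and 1.58. Of 8 Muller cell genes, 5 had lower and 3 higher means in MOG than in SHAM (median log2 difference -0.07). The water channel Aqp4 rose in MOG (log2 0.46, edgeR adjusted p = 0.000812). Glul, the glutamine synthetase of these cells, was called lower in MOG by DESeq2 (log2 -0.25, adjusted p = 0.0143) but not by edgeR (adjusted p = 0.117). Of 4 tested oligodendrocyte genes, Cnp rose in MOG (log2 0.50, edgeR adjusted p = 0.00776). Aqp4 and Cnp were lower in either needled group than in MOG by edgeR, with log2 differences of -0.35 and -0.34 for Aqp4 and -0.58 and -0.70 for Cnp. Car14, a carbonic anhydrase, was higher in GB20 and GV16 than in MOG (log2 0.50 in both, edgeR adjusted p = 0.0158 and 0.0201 in that order). With the block it was also called higher in both than in SHAM (log2 0.32 and 0.33, edgeR adjusted p = 0.0325 and 0.0258). Rlbp1, a retinoid carrier, was lower in GV16 than in SHAM (log2 difference -0.36, edgeR adjusted p = 0.0261). Of the other lists, all 7 bipolar, 10 amacrine and horizontal cell and 8 vessel markers were tested, but 7 of 8 for pigment epithelium, 3 of 5 for blood, 2 of 7 for lens and 3 of 5 for muscle. These tested genes had 0 calls in the 6 comparisons by edgeR without the block. At an unadjusted p under 0.05 in that fit, at most 1 bipolar, 1 amacrine or horizontal and 0 blood, lens or muscle markers passed. Over the comparisons 2.93% to 13% of all genes did. The vessel count reached 3 of 8 in GB20 and in GV16 against MOG, against 8% and 5.3% of all genes. The pigment epithelium count reached 4 of 7 in GB20 against SHAM and 3 in MOG against SHAM, against 9.06% and 13%. DESeq2 called the pigment epithelium gene Rpe65 higher than in SHAM in MOG, GB20 and GV16 (log2 1.65, 1.54 and 1.80, adjusted p = 0.0122, 0.0422 and 0.00539), and with the replicate number as a block edgeR called it in GB20 and GV16 (adjusted p = 0.0142 and 0.00390). With the block, edgeR also called the lens gene Crybb2 lower than in SHAM in GV16 and in MOG (log2 -2.60 and -4.49, adjusted p = 0.0258 and 0.000962). Without the block its edgeR adjusted p was 0.651 and 0.441. SHAM replicate 2 stood apart in the summed lens level, at 15.35 CPM against 0.424 and 1.61 in SHAM replicates 1 and 3. Rpe65 and Lrat of the pigment epithelium were called higher in MOG than in SHAM by edgeR with the block (log2 1.64 and 1.05, adjusted p = 0.00457 and 0.0475). Cones had 1 call by edgeR without the block, Opn1mw, higher in GV16 than in SHAM (log2 0.35, adjusted p = 0.0404). DESeq2 called it in GB20 against SHAM too (log2 0.30, adjusted p = 0.0396). With the block, edgeR called the cone gene Arr3 lower in MOG than in SHAM (log2 -0.51, adjusted p = 0.000706). It was called higher in GB20 and GV16 than in MOG by the same fit (log2 0.65 and 0.50, edgeR adjusted p = 0.000190 and 0.00452). In these 3 comparisons the numbers were not taken to pair the groups.

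Microglia and macrophage markers summed to 25.4 to 33.9 CPM in the SHAM libraries, below all immunised libraries. They summed to 44.4 to 50.8 CPM in MOG, 39.8 to 53.7 in GB20 and 43.0 to 49.6 in GV16. All 12 had higher means in MOG and in GV16 than in SHAM and 11 in GB20, with 4, 6 and 5 at an unadjusted edgeR p under 0.05, against 13%, 10.9% and 9.06% of all genes. Their part in AP-1 levels was not tested. The 7 T cell markers summed to 0.908 to 2.55 CPM, and 1 of them, Lck, passed the filter on low counts. The 5 neutrophil markers summed to 0 to 0.258 CPM, none passed the filter, and Ly6g was at 0 in all libraries. Lens genes stood apart in 2 libraries that were high for Fos and Junb, with summed levels of 15.4 CPM in SHAM replicate 2 and 8.57 in GB20 replicate 2 and 0.373 to 2.12 elsewhere. SHAM replicate 1, which had the highest Fos, was at 0.424 CPM of lens genes, and their part in the Fos values was not tested.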

How the data were processed

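Read counts and FPKM per gene were deposited by the authors for 12 retinal libraries. The authors used poly(A) libraries, HISAT2 2.0.5 (mm10, per the submitters' processing notes) and FeatureCounts for the deposited counts, and computed FPKM from count and gene length. Strand setting and annotation release were not given in the sources used here. Symbols and positions came from GENCODE vM21, and sequences from RefSeq GRCm38.p6.

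The deposited counts were tested with edgeR 4.0.16 (R 4.3.3): filterByExpr by group, TMM, robust glmQLFit over all 12 libraries with 1 mean per group, glmQLFTest (2-sided) and Benjamini-Hochberg adjustment over 18299 genes, after a check on simulated data. CPM used the TMM-scaled totals, with a pseudocount of 0.5 for correlations, whose p came from 100000 permutations (2-sided). DESeq2 1.42.0, other size factors, no filter, a replicate block, gene length offsets and leaving out each library were alternatives. DESeq2 results for the gene lists come from the fit on 12 libraries. Deviations from group means of same-numbered libraries correlated over 12277 genes at 0.181, 0.481 and 0.437 for GB20 and SHAM and at 0.182, 0.255 and 0.248 for GV16 and SHAM, so numbers were taken to pair these groups. This pairing was inferred from the data, and GB20 and GV16 correlated at only -0.129, 0.0396 and 0.0653. The replicate block was 1 fit over all 12 libraries. Its calls assume 1 replicate effect shared by all 4 groups, also where the numbers were not taken to pair them.

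Members and gene lists were chosen with earlier results of these data known. Named were all 9 AP-1 genes, per list and comparison at most 4 called genes of smallest adjusted p or otherwise the smallest p, and the 3 genes most correlated with Fos, Junb, Jun and Atf3. Egr1, Nr4a3, Egr4, Rpe65, Lrat, Crybb2, Arr3, Lck and the 2 libraries named for lens genes were chosen after their values were seen. Of the listed symbols, 4 were matched through RefSeq synonyms. The result of 1 marker list is not reported here.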

Additional observations from a re-analysis of the deposited data

How the results depend on the processing

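The count of 0 AP-1 genes called held in every setting for GB20 against MOG, GV16 against MOG, GB20 against GV16 and GB20 against SHAM. It became 1 without the filter on low counts for MOG against SHAM and for the joint test, Fosl2 in both (edgeR adjusted p = 0.0219 and 0.0211), and ranged from 0 to 1 over the fits without 1 library for GV16 against SHAM, where Junb was called without SHAM replicate 3. Of 48 fold changes of AP-1 genes, 29 kept their sign in all 20 settings. None of those that changed sign was called in the setting concerned, and only some of them are named here. Maff in MOG against SHAM became 0.05 with gene length offsets (0.04549) and with the replicate block and these offsets (0.05201), and Junb 0.003 in the latter fit (0.003255). Without 1 library, log2 differences ranged for Junb from -0.30 to 0.05192 and for Maff from -0.21 to 0.16 (MOG against SHAM), for Junb from -0.04903 to 0.21 (GB20 against MOG) and for Fos from -0.58 to 0.01464 (GB20 against SHAM). Further fold changes that changed sign are not listed. Those given next kept their sign but moved by more than 1.5 times. In MOG against SHAM the ranges were -0.89 to -0.29 (Fos), 0.22 to 0.47 (Fosb), -0.80 to -0.38 (Fosl2), 0.04 to 0.15 (Jun), -0.35 to -0.16 (Jund) and 0.07 to 0.35 (Atf3). In GB20 against MOG they were 0.10 to 0.53 (Fos), 0.40 to 0.81 (Fosl2) and 0.19 to 0.38 (Jund), and for Fosb in GV16 against MOG -0.48 to -0.16. In GB20 against GV16 they were 0.14 to 0.44 (Fosl2), 0.23 to 0.49 (Junb) and 0.13 to 0.32 (Jund), and in GV16 against SHAM -0.97 to -0.38 (Fos) and -0.58 to -0.23 (Junb).

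The number of all genes called varied more, and the cause was not tested. In the order MOG against SHAM, GB20 against MOG, GV16 against MOG, GB20 against GV16, GB20 against SHAM, GV16 against SHAM and the joint test, edgeR called 245, 44, 30, 1, 63, 120 and 201 genes. Without the filter it called 539, 140, 73, 8, 282, 395 and 681. Leaving out 1 library gave 91 to 427, 13 to 83, 10 to 38, 0 to 4, 14 to 116, 23 to 231 and 105 to 261. With the replicate block there were 404 (MOG against SHAM), 73 (GB20 against MOG), 47 (GV16 against MOG), 182 and 236 (GB20 and GV16 against SHAM) and 347 (joint), and with block and length offsets 451, 92, 65, 239, 330 and 449 in the same order. The block called 0 AP-1 genes in each comparison. For the 4 comparisons other than GB20 and GV16 against SHAM, at least 1 same-numbered pair had a correlation of at most 0.1 (lowest -0.129), so the numbers were not taken to pair these groups, and in none did every library correlate best with its own number. Whether a number marks a repeat experiment was not stated. Length offsets alone gave 132 for GB20 against SHAM. DESeq2 on the 6 libraries compared gave 127 (GB20 against MOG), 57 (GV16 against MOG), 4 (GB20 against GV16) and 124 (GB20 against SHAM). On 12 libraries it gave 5 (GB20 against GV16), 152 and 204 (GB20 and GV16 against SHAM) and 325 (joint). On the 6 libraries edgeR gave 118 (GB20 against MOG), 48 (GV16 against MOG), 3 (GB20 against GV16) and 66 (GV16 against SHAM). The order of levels by median FPKM and the number of pairs with pseudocounts of 0.1 or 1 were as given. Depth limits Batf3 and leaves Maff, with 18 to 36 counts, imprecise.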
